A study of Homo sapiens with 8 samples.

Results

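The genes described here are 10 members of JAK-STAT signaling: the kinases JAK1, JAK2, JAK3 and TYK2, the transcription factors STAT3, STAT5A, STAT5B and STAT6, and the inhibitors SOCS1 and SOCS3. The rule that picks them is a list of gene symbols and uses no expression value, though earlier results of these data were known when it was drawn up. They come from the 63967 gene labels of the deposited table, of which 18143 could be placed on their values, the 10 members among them. RNA-seq was performed on Raji, a Burkitt's lymphoma line sensitive to rituximab, and on Raji-4RH, the rituximab-resistant line made from it by repeated exposure to that antibody. Each line was exposed for 24 h to DMSO, the vehicle, or to 3 μM chidamide, a histone deacetylase inhibitor, with 2 libraries per group and 8 in all. The cells, at passages 2-3, were harvested by flow sorting, so that 1 sensitive and 1 resistant line were compared. The labels number the libraries of a group without naming separate cultures. The p-values therefore rest on the spread between replicate libraries, pooled for each gene over the 4 groups. That spread may be technical.

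Cytokine receptors have no kinase of their own. A ligand brings receptor chains together, the JAK kinases bound to these chains phosphorylate the receptor and then a STAT protein, and the STAT dimer enters the nucleus and binds DNA. SOCS1 and SOCS3 are themselves STAT-induced genes whose proteins inhibit the kinases or direct them to degradation, which closes a negative feedback. In B cells STAT6 is known for its part downstream of IL-4, STAT3 downstream of IL-6, IL-10 and IL-21, and STAT5 downstream of the IL-2 and IL-7 receptors.

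Levels are FPKM, fragments per kilobase of exon, scaled to the reads of the library. Differences are log2 fold changes of FPKM + 1, with their standard error (SE) and a Benjamini-Hochberg adjusted p-value over all 10710 genes tested by limma, and a gene was called at an adjusted p under 0.05. The placed values rest on libraries of 13991697 to 21193441 reads, the lowest being replicate 1 of Raji-4RH with chidamide. In these bulk libraries fewer cells of a type and less RNA per cell cannot be told apart.

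Chidamide was followed by higher JAK1, JAK2, STAT3 and SOCS1 in both lines. TYK2 and STAT5A rose in Raji and were not called in Raji-4RH, while STAT5B rose in Raji-4RH and was not called in Raji, and for each of these genes the difference between the lines passed its own test. STAT6 went in opposite directions, down in Raji and up in Raji-4RH. Without the drug, the lines differed most in the STAT5 pair: Raji-4RH held 30.1 times the STAT5A level of Raji, and Raji held 2.35 times the STAT5B level of Raji-4RH. JAK3 and SOCS3 stayed at or below 0.367 FPKM in every library.

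**Figure D1:**
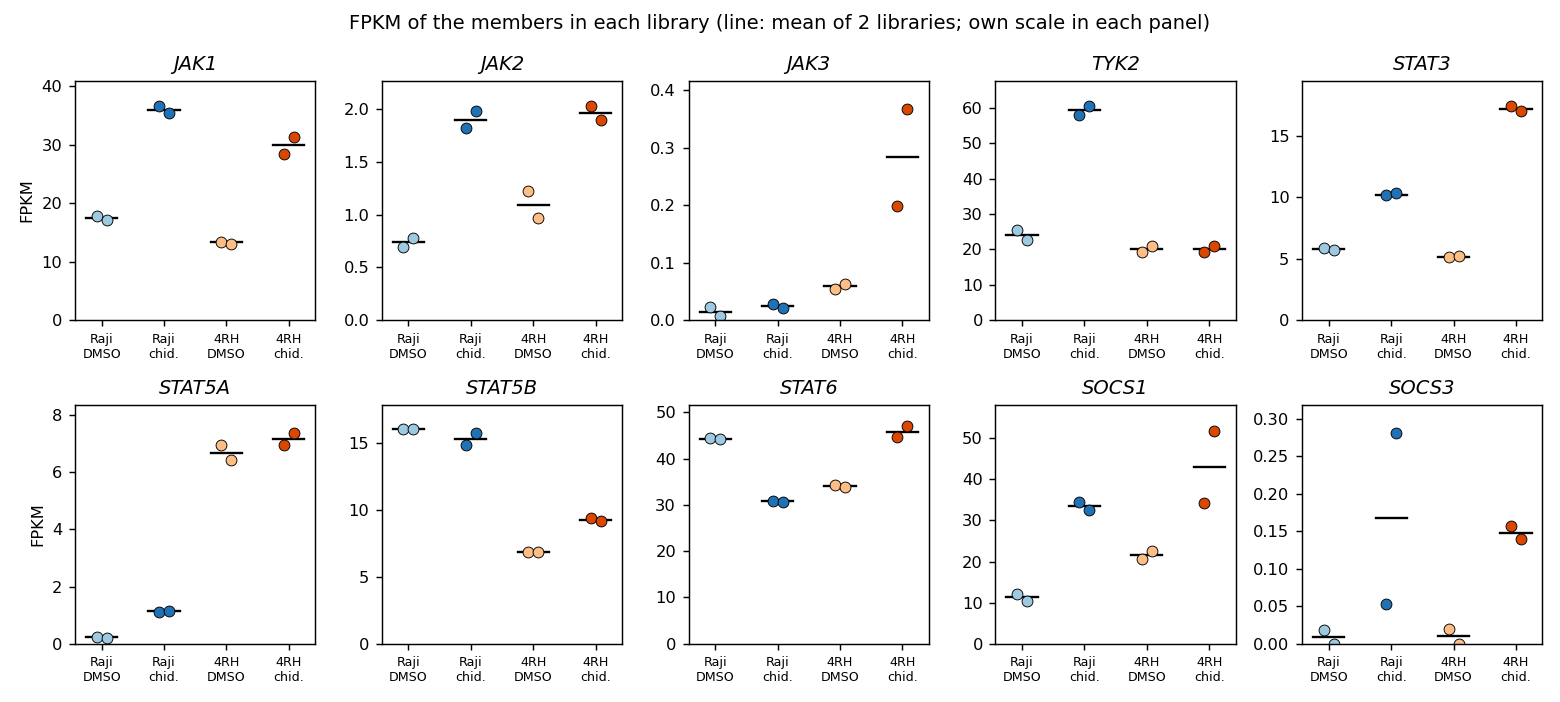
FPKM (vertical axis, from 0, with its own scale in each panel) of the 10 members in the 4 groups. Each point is 1 of 2 libraries and each line their mean; TYK2 with chidamide lies at 58.1 and 60.6 in Raji and at 19.4 and 20.9 in Raji-4RH, and STAT5A lies at 1.15 or below in all Raji libraries and at 6.43 or above in all Raji-4RH libraries.

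JAK1, the kinase used by most class II cytokine receptors and by the gamma chain and gp130 receptors, read 17.8 and 17.1 FPKM in Raji with DMSO and 36.7 and 35.4 with chidamide. The Raji-4RH libraries read 13.4 and 13.1 with DMSO and 28.4 and 31.3 with chidamide. The treated and untreated libraries did not overlap in either line, and JAK1 about doubled in each: the ratio of mean FPKM was 2.07 in Raji (log2 fold change 1.01, SE 0.06, limma adjusted p = 3.71e-06) and 2.25 in Raji-4RH (1.11, SE 0.06, limma adjusted p = 7.74e-07). The difference between these effects was 0.10, with a 95% interval from -0.09 to 0.30 (limma adjusted p = 0.336), and it was called only under quantile normalization among the alternatives tried (0.239, limma adjusted p = 0.0417; range over the alternatives 0.0417 to 0.664). Without the drug JAK1 was 1.31 times higher in Raji (limma adjusted p = 0.000571).

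TYK2, the kinase of the type I interferon, IL-12 and IL-10 receptors, read 25.5 and 22.6 FPKM in Raji with DMSO and 58.1 and 60.6 with chidamide. In Raji-4RH it read 19.4 and 21.0 with DMSO and 19.4 and 20.9 with chidamide. The Raji libraries with chidamide were the highest, and the groups overlapped in Raji-4RH. TYK2 rose 2.46-fold in Raji (log2 fold change 1.27, SE 0.073, limma adjusted p = 3.22e-06), while the change in Raji-4RH was -0.003 with a 95% interval from -0.17 to 0.17 (limma adjusted p = 0.971). The difference of -1.27 (SE 0.104) was called (limma adjusted p = 4.41e-05). Under quantile normalization the Raji-4RH change became a called rise of 0.179 (limma adjusted p = 0.0334; range over the alternatives 0.0334 to 0.989), and the difference between lines was still called. Without the drug TYK2 was 1.19 times higher in Raji (limma adjusted p = 0.0165), a call lost without replicate 1 of Raji DMSO (0.118) and without replicate 1 of Raji-4RH DMSO (0.122), in a range over the alternatives from 0.00692 to 0.122.

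JAK2, the kinase of the erythropoietin, thrombopoietin and growth hormone receptors and a partner in interferon gamma signaling, was low. It read 0.689 and 0.78 FPKM in Raji with DMSO, from 84 and 97 reads, and 1.82 and 1.98 with chidamide. In Raji-4RH the DMSO libraries gave 141 and 127 reads, a mean of 1.09 ± 0.175 FPKM (SD, n = 2), and the treated ones 2.03 and 1.9 FPKM. The treated libraries lay above the untreated ones in both lines, 2.59-fold in Raji (log2 fold change 0.74, SE 0.074, limma adjusted p = 6.27e-05) and 1.8-fold in Raji-4RH (0.50, SE 0.074, limma adjusted p = 0.000311). The Raji-4RH rise was lost under quantile normalization, where it was -0.032 (limma adjusted p = 0.741; range over the alternatives 0.000197 to 0.741). The difference between lines, -0.24 (95% interval -0.48 to 0.00), was not called (limma adjusted p = 0.0936), and was called under quantile normalization (-0.426) and without replicate 2 of Raji-4RH DMSO (-0.324), with adjusted p over the alternatives from 0.0166 to 0.275. Without the drug JAK2 was 1.48 times higher in Raji-4RH (limma adjusted p = 0.0103), a call lost under quantile normalization (0.792), without replicate 1 of Raji DMSO (0.0662) and without replicate 1 of Raji-4RH DMSO (0.0799), in a range from 0.00667 to 0.792.

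JAK3, which works with the common gamma chain in lymphocytes, was near the detection limit. It gave 3 and 1 reads in Raji with DMSO, 4 and 3 with chidamide, 7 and 9 in Raji-4RH with DMSO, and 19 and 46 in Raji-4RH with chidamide. These are levels of 0.199 and 0.367 FPKM in the last group against at most 0.0623 in the others, where 3 reads correspond to 0.0208 to 0.0315 FPKM. JAK3 did not pass the filter of at least 1 FPKM in 2 libraries. With no filter it was called in Raji-4RH (log2 fold change 0.27, limma adjusted p = 0.00545) and not in Raji (0.01, limma adjusted p = 0.946), and the difference was 0.26 (limma adjusted p = 0.0435).

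As a family, the 4 kinases summed to 44.0 and 40.5 FPKM in Raji with DMSO, 96.7 and 98.0 in Raji with chidamide, 34.1 and 35.1 in Raji-4RH with DMSO, and at most 54.5 in Raji-4RH with chidamide. TYK2 made up 55.9% to 61.9% of that sum in all libraries but the treated Raji-4RH ones, where it made up 38.7% and 38.4% and JAK1 56.8% and 57.4%. JAK1 thus led the family in treated Raji-4RH cells and TYK2 in the other 3 groups.

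**Figure D2:**
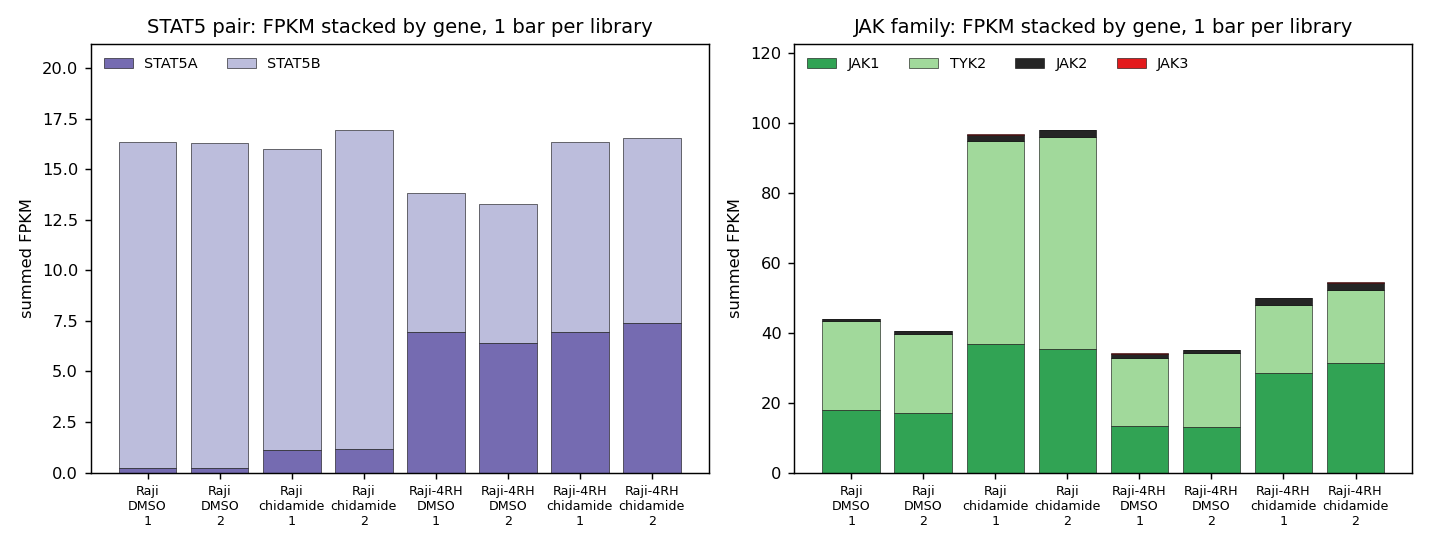
Summed FPKM (vertical axis, from 0) of the STAT5 pair on the left and the JAK family on the right, stacked by gene, with 1 bar per library. The STAT5 bars reach 13.3 to 16.9 FPKM while STAT5A goes from 1.32% of the sum to 50.3%, and the JAK bars of treated Raji reach 96.7 and 98.0 FPKM through both JAK1 and TYK2.

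STAT5A, STAT5B and STAT3 are neighbors on chromosome 17. In GENCODE v29 on GRCh38, STAT5B lies at chr17:42199168-42276707 on the minus strand, STAT5A at chr17:42287547-42311943 on the plus strand and STAT3 at chr17:42313324-42388568 on the minus strand, with 10839 and 1380 bases between them. STAT5A and STAT5B are near copies: their coding sequences were 89.0% identical over 2345 aligned bases, with 1 identical run of 429 bases. Reads from such a run fit both genes, and 11.92% of the 50-base stretches of the STAT5A transcript and 10.03% of those of STAT5B occur in the other gene; how the counting treated such reads is not given in the sources used here. The stretch below, coding bases 77 to 166 of each transcript in GENCODE v29, is shown because it tells the paralogs apart, with 27 of 90 bases differing, which are the capitals:
STAT5A: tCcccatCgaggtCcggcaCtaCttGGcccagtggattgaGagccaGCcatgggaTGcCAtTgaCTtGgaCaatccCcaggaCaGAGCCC
STAT5B: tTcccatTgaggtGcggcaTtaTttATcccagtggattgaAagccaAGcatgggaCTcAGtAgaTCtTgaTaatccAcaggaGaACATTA

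STAT5A gave 26 and 25 reads in Raji with DMSO, or 0.229 and 0.216 FPKM, and 132 and 138 reads with chidamide, or 1.11 and 1.15 FPKM. The Raji-4RH libraries read 6.96 and 6.43 FPKM with DMSO and 6.96 and 7.39 with chidamide. All 4 Raji-4RH libraries lay above all 4 Raji libraries, and the treated and untreated groups were apart in Raji and overlapped in Raji-4RH. The rise in Raji was 5.09-fold in mean FPKM (log2 fold change 0.80 after the addition of 1, SE 0.062, limma adjusted p = 1.47e-05), the change in Raji-4RH was 0.09 (95% interval -0.05 to 0.23, limma adjusted p = 0.227), and the difference of -0.72 was called (limma adjusted p = 0.000333). Without the drug STAT5A was higher in Raji-4RH by 2.65 on the log2 scale (SE 0.062, limma adjusted p = 5.79e-09). The size depended on the scale at these low levels: over the alternatives the gap between the lines ran from 2.26 to 4.88, the rise in Raji from 0.38 to 2.33 and the difference from -2.22 to -0.38, with each of these calls kept.

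STAT5B read 16.1 FPKM in both Raji libraries with DMSO and 14.9 and 15.8 with chidamide. In Raji-4RH it read 6.86 and 6.87 with DMSO and 9.4 and 9.15 with chidamide. The Raji-4RH libraries all lay below the Raji libraries, and treated and untreated libraries did not overlap in either line. STAT5B rose 1.35-fold with chidamide in Raji-4RH (log2 fold change 0.39, SE 0.052, limma adjusted p = 0.000179), and in Raji the change was -0.07 (95% interval -0.19 to 0.05, limma adjusted p = 0.29). The difference of 0.45 was called (limma adjusted p = 0.00142), as was the lower level of Raji-4RH without the drug (-1.12, SE 0.052, limma adjusted p = 2.67e-07).

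Summed over the STAT5 pair, the level was 16.4 and 16.3 FPKM in Raji with DMSO, at most 16.9 in Raji with chidamide, 13.8 and 13.3 in Raji-4RH with DMSO, and 16.4 and 16.5 in Raji-4RH with chidamide. STAT5A made up 1.4% and 1.32% of this sum in Raji with DMSO and 6.96% and 6.8% with chidamide, against 50.3% and 48.4% in Raji-4RH with DMSO and 42.5% and 44.7% with chidamide. Raji thus expressed STAT5B with little STAT5A, and untreated Raji-4RH expressed the pair at near-equal levels. In treated Raji-4RH STAT5B lay above STAT5A without overlap, with means of 9.28 and 7.17 FPKM.

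STAT3 read 5.83 and 5.7 FPKM in Raji with DMSO and 10.2 and 10.3 with chidamide. The Raji-4RH libraries read 5.14 and 5.19 with DMSO and 17.4 and 17.0 with chidamide. The groups were apart in both lines, and the treated Raji-4RH libraries were the highest. STAT3 rose 1.77-fold in Raji (log2 fold change 0.73, SE 0.05, limma adjusted p = 7.95e-06) and 3.33-fold in Raji-4RH (1.56, SE 0.05, limma adjusted p = 7.12e-08). The difference of 0.83 was called (SE 0.071, limma adjusted p = 5.43e-05). Without the drug STAT3 was 1.11 times higher in Raji (limma adjusted p = 0.0387), a call lost with the replicate block (0.0671), with only the 4 untreated libraries (0.0718), and without any 1 of the 4 untreated or the 2 treated Raji libraries (0.0686 to 0.135), in a range over the alternatives from 0.0144 to 0.135.

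STAT6 (chr12:57095408-57132139, minus strand) read 44.4 and 44.2 FPKM in Raji with DMSO and 30.9 and 30.6 with chidamide. In Raji-4RH it read 34.3 and 33.8 with DMSO and 44.7 and 47.0 with chidamide. The treated libraries lay below the untreated ones in Raji and above them in Raji-4RH. STAT6 fell in Raji (log2 fold change -0.51, SE 0.049, limma adjusted p = 4.59e-05) and rose in Raji-4RH (0.42, SE 0.049, limma adjusted p = 7.07e-05), with a difference of 0.93 (SE 0.069, limma adjusted p = 2.94e-05). Of all genes tested, 371, or 3.46%, were called in opposite directions in the lines, and STAT6 was the member among them. Without the drug STAT6 was 1.3 times higher in Raji (limma adjusted p = 0.000154). The exons of STAT6 share 128 bases, 1.8% of their length, with NAB2 and LRP1 on the opposite strand, and whether the counting used strand is not given in the sources used here. STAT6 made up the greater part of the summed STAT level in each group, with 66.7% and 66.8% of the 4 STAT members in Raji with DMSO, 54.2% and 52.9% with chidamide, 64.4% and 64.6% in Raji-4RH with DMSO, and 57.0% and 58.3% with chidamide.

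**Figure D3:**
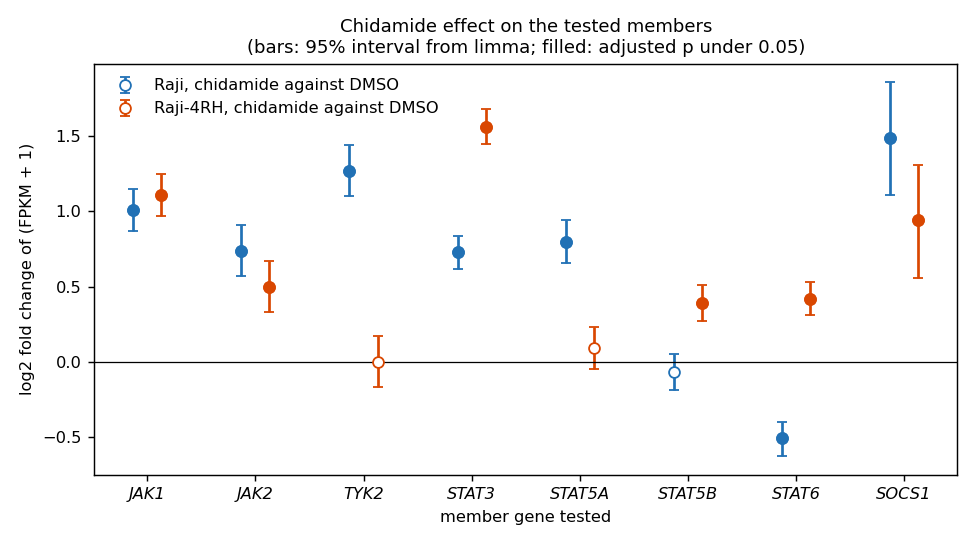
Log2 fold change of FPKM + 1 with chidamide (vertical axis) for the 8 members tested, Raji in blue and Raji-4RH in orange. Bars are limma's 95% intervals and filled points passed an adjusted p of 0.05; STAT6 lies at -0.51 in Raji and at 0.42 in Raji-4RH, and TYK2 at 1.27 and -0.003.

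SOCS1 (chr16:11254405-11256200, minus strand), which binds JAK kinases and blocks their activity, read 12.1 and 10.5 FPKM in Raji with DMSO and 34.5 and 32.5 with chidamide. The Raji-4RH libraries read 20.6 and 22.5 with DMSO and 34.2 and 51.8 with chidamide. The treated libraries lay above the untreated ones in both lines, and the treated Raji-4RH libraries were far apart (mean 43.0 ± 12.4, SD, n = 2; 587 and 1169 reads). SOCS1 rose 2.96-fold in Raji (log2 fold change 1.49, SE 0.162, limma adjusted p = 9.72e-05) and 1.99-fold in Raji-4RH (0.94, SE 0.162, limma adjusted p = 0.000792). The difference was -0.55 (95% interval -1.08 to -0.02, limma adjusted p = 0.0791). Without replicate 2 of Raji-4RH with chidamide it became -0.842 and was called (limma adjusted p = 0.000499; range over the alternatives 0.000499 to 0.362). Without the drug SOCS1 was 1.91 times higher in Raji-4RH (limma adjusted p = 0.00125). The table gives SOCS1 a length of 1225 bases where GENCODE v29 gives 1796, which touches its level against other genes and not its FPKM ratios between groups. Its log2 fold changes, taken after the addition of 1, also depend on the length and were not recomputed.

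SOCS3, which inhibits gp130 signaling, was near the detection limit. It gave 1 and 0 reads in Raji with DMSO, 3 and 16 with chidamide, 1 and 0 in Raji-4RH with DMSO, and 6 and 7 with chidamide. The treated libraries lay above the untreated ones in each line, at 0.0532 to 0.281 FPKM, where 3 reads correspond to 0.0518 to 0.0784 FPKM. SOCS3 did not pass the filter, and with no filter it was not called in Raji-4RH (log2 fold change 0.19, limma adjusted p = 0.0956) or in Raji (0.20, limma adjusted p = 0.102).

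By mean FPKM the order of the members in Raji with DMSO was STAT6, TYK2, JAK1, STAT5B, SOCS1, STAT3, JAK2, STAT5A, JAK3 and SOCS3, and of these neighbors JAK3 and SOCS3 overlapped. In Raji with chidamide TYK2 led, followed by JAK1, SOCS1 and STAT6, and no neighbors overlapped. In Raji-4RH with DMSO STAT6 led, and SOCS1 and TYK2, and then STAT5B and STAT5A, overlapped. In Raji-4RH with chidamide STAT6 (45.8 FPKM) and SOCS1 (43.0 FPKM) led and overlapped, followed by JAK1, TYK2 and STAT3. The place of SOCS1 depends on its length: with the 1796 bases of GENCODE v29, a calculation added after the data were seen, it would lie at 22.8 FPKM in treated Raji, below STAT6, and at 29.3 FPKM in treated Raji-4RH, overlapping JAK1 and not STAT6. In untreated Raji-4RH it would lie at 14.7 FPKM, below TYK2 without overlap.

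Over the 8 members that passed the filter, 6 were called higher and 0 lower with chidamide in Raji-4RH, where 74.9% of all genes tested were called, 43.3% higher and 31.6% lower. In Raji 6 were higher and 1 lower, where 60.0% of all genes were called, 31.5% higher and 28.5% lower. The difference between the effects was called for 5 members, 3 with the larger log2 fold change in Raji-4RH and 2 with the smaller, against 48.8% of all genes (27.2% larger and 21.7% smaller). The lines without the drug differed for 8 members, 3 of them higher and 5 lower in Raji-4RH, against 73.6% of all genes (41.2% higher and 32.4% lower). For the 8 members the median was 0.461 in Raji-4RH and 0.772 in Raji on the log2 scale, beside 0.093 and 0.017 over all genes. The share of members called in Raji-4RH lay at that of all genes, so the count there is no feature of the members. JAK2 passed the filter only through treated libraries, so the filter favored its rise in the counts of both lines. Quantile normalization moved the median of all genes in Raji-4RH from 0.093 to -0.022 and the higher share of its calls from 57.9% to 47.8%. Libraries of the groups compared did not overlap for 86.5% of all genes in Raji-4RH, 82.8% in Raji and 88.5% between the untreated lines.

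The other genes of the pathway came from lists of receptors, ligands, regulators, other STATs and genes known as STAT targets. Of 105 genes in them, 101 were placed and 63 were tested. List genes at 1 FPKM only when treated had to differ to be counted. With chidamide 38 were higher and 9 lower in Raji-4RH (median log2 fold change 0.363), or 74.6% called beside 74.9% of all genes, so that count is no feature of the lists. In Raji 39 were higher and 6 lower (median 0.502), or 71.4% called beside 60.0% of all genes. The difference between the lines was called for 38, or 60.3% beside 48.8% of all genes, 16 of them with the larger value in Raji-4RH. Without the drug 20 were higher and 36 lower in Raji-4RH, or 88.9% called beside 73.6%, with a median of -0.345 beside 0.063 over all genes. Some of these genes passed the filter through 1 line only, so the filter favored a difference between the lines. Among them were IL15RA, CLCF1, IL10 and CCL22 through Raji and IL12RB2 through Raji-4RH. Changes of list genes below are log2 fold changes called by limma in the line named, and where a call is lost under an alternative the highest adjusted p over the alternatives is given.

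**Figure D4:**
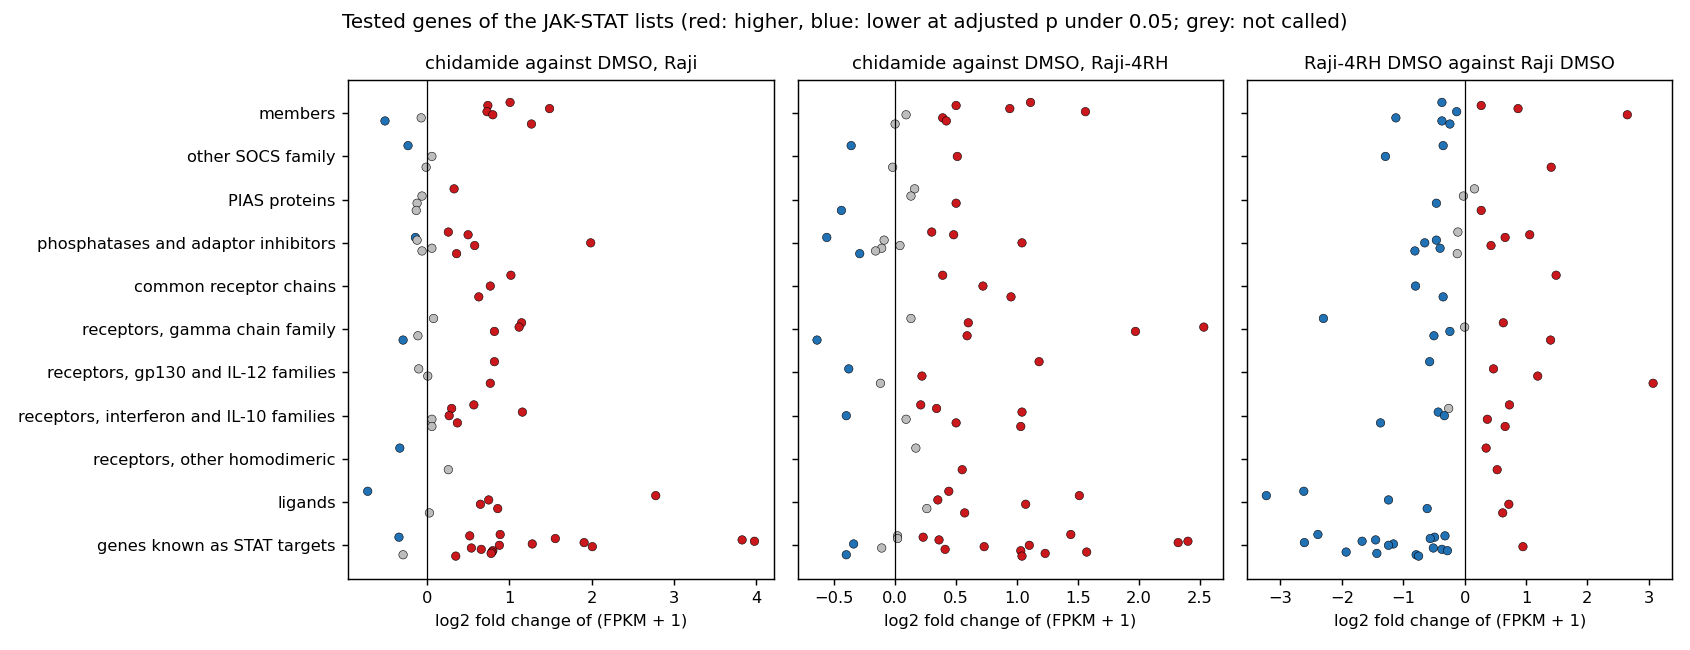
Log2 fold change of FPKM + 1 (horizontal axis) of the tested genes in the lists drawn, for chidamide in Raji, chidamide in Raji-4RH and Raji-4RH against Raji without the drug. Red points were called higher, blue points lower and grey points not called; in the last panel 16 of the 17 tested STAT target genes are blue.

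Of the other STAT genes, STAT2 was at -0.02 in Raji and -0.15 in Raji-4RH, neither called, but its label and those of SOCS4 and SOCS6 lie 3, 3 and 23 labels from a change in the displacement of the table, so their placing is uncertain. STAT4 did not pass the filter and IRF9 was not placed.

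Among the listed regulators, PTPN6 (SHP-1) is a phosphatase that acts on JAK and receptor phosphotyrosines. It read 10.6 and 9.85 FPKM in Raji with DMSO and 44.2 and 42.8 with chidamide. In Raji-4RH it read 5.95 and 6.33 with DMSO and 11.9 and 15.8 with chidamide. It rose in both lines (log2 fold change 1.99 in Raji, limma adjusted p = 2.48e-06, and 1.04 in Raji-4RH, limma adjusted p = 3.61e-05), and the difference of -0.95 was called (limma adjusted p = 0.00146). Its list holds 9 tested genes, phosphatases, adaptors and CBL, which need not all inhibit the pathway. Of these, 5 were higher and 1 lower in Raji (66.7% called, beside 60.0% of all genes). In Raji-4RH 3 were higher and 2 lower (55.6%, beside 74.9%). PTPN1 rose by 0.5 in Raji and 0.48 in Raji-4RH, and the ubiquitin ligase CBL by 0.26 and 0.3. The phosphatase PTPN11 fell by 0.56 in Raji-4RH and by 0.14 in Raji, where the call is lost (limma adjusted p up to 0.701). PTPRC (CD45) rose by 0.58 in Raji and was at 0.04 in Raji-4RH, not called. The adaptor SH2B3 was at 0.36 in Raji and -0.29 in Raji-4RH, and both calls are lost under alternatives (limma adjusted p up to 0.135 and 0.204). Without the drug PTPN1 (1.06) and PTPN11 (0.66) were higher in Raji-4RH, and SH2B2 (-0.81) and PTPN6 (-0.65) were lower. SOCS5 rose in Raji-4RH (0.51, limma adjusted p = 0.0029; range over the alternatives up to 0.872) and was lower there without the drug (-1.29), and CISH gave 0 reads in the 6 libraries other than the treated Raji-4RH ones, which held 10 and 8. Of the 4 PIAS genes, which encode SUMO ligases that restrain STATs, PIAS1 rose in Raji (0.33; limma adjusted p up to 0.075 over the alternatives), and in Raji-4RH PIAS3 rose (0.5) and PIAS4 fell (-0.44), while PIAS2 was at -0.06 and 0.13.

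The receptor chains shared by several cytokines rose in both lines. The log2 fold change in Raji and Raji-4RH was 0.77 and 0.72 for IL2RG, the common gamma chain, 0.63 and 0.95 for IL6ST (gp130), and 1.02 and 0.39 for CSF2RB, the common beta chain. Without the drug IL2RG (-0.8) and IL6ST (-0.35) were lower in Raji-4RH, and CSF2RB was higher (1.49).

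IL2RA (CD25) and IL2RB, the other chains of the IL-2 receptor, whose signal runs through JAK1, JAK3 and STAT5, were low without the drug. IL2RA read 0.191 and 0.172 FPKM in Raji with DMSO, 1.65 and 1.48 with chidamide, 0.134 and 0.238 in Raji-4RH with DMSO, and 6.03 and 5.66 with chidamide. IL2RB read 0.334 and 0.317, 1.46 and 1.24, 0.0908 and 0.151, and 3.13 and 3.66 FPKM in the same order. Both rose in both lines and more in Raji-4RH: the difference was 1.41 for IL2RA (limma adjusted p = 2.21e-05) and 1.15 for IL2RB (limma adjusted p = 0.000105). Both reached 1 FPKM only with chidamide, so they passed the filter through the treated libraries. Without a rise in at least 1 line they would not have been tested. IL4R, the receptor upstream of STAT6, read 50.4 and 45.7 FPKM in Raji with DMSO and 44.7 and 43.8 with chidamide, and 32.6 and 34.9 against 50.5 and 52.0 in Raji-4RH. IL4R rose in Raji-4RH (0.59, limma adjusted p = 3.94e-05) and was not called in Raji (-0.11, limma adjusted p = 0.15), with a difference of 0.70 (limma adjusted p = 0.000381). IL7R fell in both lines (-0.29 in Raji, with a limma adjusted p up to 0.0577 over the alternatives, and -0.64 in Raji-4RH), IL21R rose in both (1.15 and 0.6), and without the drug IL15RA was lower in Raji-4RH (-2.3; 1 and 2 reads there) and IL7R higher (1.4). IL15RA reached 1 FPKM only in Raji, so it passed the filter through the line where it was higher.

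IL27RA, which pairs with gp130, was higher in untreated Raji-4RH (3.07, limma adjusted p = 8.37e-08), with 8.86 and 9.89 FPKM against 0.291 and 0.184. With chidamide IL27RA rose in Raji (0.77), IL11RA rose in both lines (0.82 in Raji and 1.18 in Raji-4RH), and IL12RB1 fell in Raji-4RH (-0.38). Of 7 interferon and IL-10 family receptor genes tested, 5 were higher and 0 lower in Raji (71.4% called, beside 60.0% of all genes), and 5 were higher and 1 lower in Raji-4RH (85.7%, beside 74.9%). IFNGR1 rose by 1.16 in Raji and 1.04 in Raji-4RH, and IFNAR1 by 0.57 and 0.21. IFNGR2 was called in opposite directions, at 0.27 in Raji (limma adjusted p up to 0.0547 over the alternatives) and -0.4 in Raji-4RH, with a difference of -0.67 (limma adjusted p = 0.000473). IL10RA rose by 0.37 in Raji and 0.5 in Raji-4RH, where the call is lost under an alternative (limma adjusted p up to 0.413). IFNAR2 was at 0.3 and 0.34, with both calls lost under alternatives (limma adjusted p up to 0.221 and 0.106), as was that of EPOR in Raji (-0.33, limma adjusted p up to 0.169).

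Of 26 ligand genes placed, 6 passed the filter. EBI3, the shared chain of IL-27 and IL-35, read 9.94 and 8.31 FPKM in Raji with DMSO and 66.7 and 70.2 with chidamide, and 0.0831 and 0.0735, from 2 reads each, against 1.95 and 2.2 in Raji-4RH. It rose in both lines (2.78 in Raji, limma adjusted p = 2.08e-07, and 1.51 in Raji-4RH, limma adjusted p = 8.77e-07) and was lower in untreated Raji-4RH (-3.23, limma adjusted p = 1.01e-08). IL23A rose by 0.65 in Raji and 1.07 in Raji-4RH, and IL10 rose by 0.75 in Raji. CLCF1 fell in Raji (-0.72) and was lower in untreated Raji-4RH (-2.62). It too reached 1 FPKM only in Raji and passed the filter through that line. With chidamide in Raji-4RH, IL10 was at 0.35 and CLCF1 at 0.44, and both calls are lost and both directions turn under alternatives (from -0.18 to 1.76 for IL10, limma adjusted p up to 0.278, and from -0.17 to 1.87 for CLCF1, up to 0.148). Fitted values of genes with a few reads in 1 line depend on the added 1 FPKM.

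Of 17 genes known as STAT targets that were tested, 15 were higher and 1 lower with chidamide in Raji (94.1% called, beside 60.0% of all genes), and 12 were higher and 2 lower in Raji-4RH (82.4%, beside 74.9%). Without the drug 1 was higher and 16 were lower in Raji-4RH, where 73.6% of all genes were called and 32.4% were lower. Many of these genes answer to other factors too, and the list was chosen with earlier results of these data known. CCL17 and PRDM1 reached 1 FPKM only in treated libraries, so they had to differ to be counted. CCL22 reached 1 FPKM only in Raji, so it passed the filter through the line where it was higher. CCR7, a homing receptor, rose by 3.98 in Raji and 2.4 in Raji-4RH, and FCER2 (CD23), an IL-4 response gene of B cells, by 1.91 and 2.32. FCER2 had only 3 and 1 reads in untreated Raji-4RH, and its change there ran from 2.0 to 6.54 over the alternatives. Its ratio of mean FPKM was 4.27 in Raji and 100 in Raji-4RH. The chemokine CCL22 rose by 3.83 in Raji, with 38.7 FPKM in both treated libraries, and went from 1 and 2 reads to 14 and 16 in Raji-4RH, or 0.342 and 0.297 FPKM. That change in Raji-4RH was 0.36 and called (limma adjusted p = 0.00094), but ran from -0.02 to 3.29 over the alternatives (limma adjusted p up to 0.844), and the difference of -3.46 (limma adjusted p = 6.75e-07) ran from -3.6 to -1.14 (up to 0.17). IRF4 rose by 2.01 in Raji and 0.73 in Raji-4RH, the kinase PIM1 by 0.79 and 1.57, and BATF by 0.89 and 1.44, the BATF call in Raji being lost under an alternative (limma adjusted p up to 0.115). BCL6, a germinal center repressor, moved as STAT6 did, at -0.34 in Raji (limma adjusted p = 0.000832) and 0.23 in Raji-4RH (limma adjusted p = 0.00465), and was named after its values were seen. Without the drug FCER2 (-2.61), BATF (-2.39), PIM1 (-1.93) and CCR7 (-1.67) were lower in Raji-4RH.

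Among the 6613 or 6614 tested genes whose mean reached 5 FPKM, the profile most like that of STAT5A over the 8 libraries, by the root mean square difference of centred log2 values, was that of PPID (0.162), followed by TTYH3 (0.171) and LCK (0.174). For SOCS1 they were TMEM175 (0.08), TRIP10 (0.114) and CPNE5 (0.167). For STAT3 they included CYB5R1 (0.091) and SMARCD3 (0.129).

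All 7 B cell markers exceeded 1 FPKM in each group, with a summed level of 610 to 1150 FPKM that was lowest in treated Raji-4RH. The 8 T and NK cell markers summed to 0.0712 and 0.0821 FPKM in Raji with DMSO, where 5 of them were at 0, to 0.819 to 1.09 with chidamide, to 0.787 to 0.998 in Raji-4RH with DMSO, and to 4.11 to 5.1 with chidamide, where CD3E was the highest. The 7 myeloid markers summed to 0.826 to 1.07 FPKM without the drug and 6.87 to 9.77 with it. The 7 stromal and epithelial markers summed to 0.504 to 0.524 FPKM in Raji with DMSO and 2.16 to 2.43 with chidamide. In Raji-4RH they summed to 0.0739 to 0.0852 and 1.48 to 1.9. Each of these sums outside the B cell markers was higher with the drug in both lines, as were IL2RA and IL2RB. Their part in those results was not tested. A few genes carried the sums: CD3E had a mean of 3.52 FPKM and LYZ of 4.1 in treated Raji-4RH, and CSF1R of 4.85 in treated Raji. The highest stromal and epithelial markers were COL1A1 in treated Raji, with a mean of 2.21 FPKM, and PDGFRB in treated Raji-4RH, with 0.7. CD2, CD8A, FCN1 and MPO had a mean of at most 0.143 FPKM in any group, but other low markers of these lists went higher. S100A9 had a mean of 1.63 FPKM in treated Raji and CD3D of 0.503 in treated Raji-4RH.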

How the data were processed

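RNA was sequenced on an Illumina HiSeq X instrument from NEBNext Ultra libraries. The submitters' processing notes name HISAT2 2.0.5, SAMtools 1.7, HTSeq 0.9.1 and DESeq2 1.22.2 with hg38 (GRCh38); the annotation is not given in the sources used here. The authors deposited FPKM in 1 table, with a length for each gene. Its 63967 labels outnumber its 63305 rows of values, the last 662 rows repeating the first 662, so values lie 0 to 14 rows below their labels, by stretches. Reads were recovered from FPKM, length and library total (100% of non-zero values whole, tolerance 0.01) and FPKM was recomputed with the length of the label. The known displacement placed 18143 labels, holding 90.7% to 93.2% of the reads of a library. Within 120 labels on each side, gene families known as constitutive or silent matched this displacement best for 10 of 10 members. The check was thinnest for STAT6, with 4 constitutive and 7 silent labels. Of the members, STAT6 also lies nearest to a change in displacement, at 40 labels, followed by SOCS1 at 76. Past the unshifted rows, 95.2% of 396 constitutive genes had over 100 reads when placed against 63.1% as deposited, and 15.8% of 849 silent genes against 55.1%.

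Differences were tested with limma 3.58.1 in R 4.3.3 (lmFit, eBayes with trend) on log2(FPKM + 1), a scale that understates changes of low genes, with all 8 libraries in 1 fit. Genes entered at 1 FPKM or more in at least 2 libraries, 10710 in all. The fit was also run on simulated counts with equal noise in all groups and few changed genes. These data differ in both, so that run does not show how the fit behaves here. Treated and untreated libraries were compared in each line, then the 2 effects with each other and the untreated lines. With limma voom on the recovered reads, 8113 genes were called in Raji-4RH, 6662 in Raji, 4716 for the difference and 8062 between the untreated lines. Named genes were the members, up to 4 called genes per list and comparison with the largest change at a mean of at least 1 FPKM (lists of 4 or fewer whole), and 3 genes with the most similar profile for the 3 members of widest range; some genes this rule names are not reported here. Members and lists were chosen with earlier results of these data known. Positions come from GENCODE v29.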

Additional observations from a re-analysis of the deposited data

Results flagged for a closer look

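For 5 of the 8 members tested, the test of the difference itself (limma, Raji-4RH minus Raji) found that the chidamide effect was not the same in the lines. On the log2 scale the difference was -1.27 for TYK2, -0.72 for STAT5A, 0.93 for STAT6, 0.83 for STAT3 and 0.45 for STAT5B, beside 48.8% of all genes called in that comparison. STAT6 was the one called in both lines with opposite signs, STAT3 rose in both lines, and TYK2, STAT5A and STAT5B were each called in 1 line.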

How the results depend on the processing

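Of 536 values of members under alternative settings, 514 kept direction and call, 13 lost the call, 4 gained one and 5 turned direction. The turned values were, under quantile normalization JAK2 in Raji-4RH (-0.032), TYK2 in Raji-4RH (0.179) and STAT5B in Raji (0.003), and TYK2 in Raji-4RH without Raji-4RH DMSO replicate 2 (0.053) or without Raji-4RH chidamide replicate 1 (0.049), in a leave-one-out range from -0.06 to 0.053; the cause was not tested. A log2 fold change of at least 1 left 2 members called in Raji-4RH, 3 in Raji, 1 for the difference and 2 between the untreated lines. With rows as deposited 3 members were called for the difference and 5 between the untreated lines, where values stand beside other genes' labels. Leaving out 1 library at a time gave 6 to 6 members in Raji-4RH, 7 to 7 in Raji, 5 to 6 for the difference and 5 to 8 between the untreated lines, the 5 arising without Raji DMSO replicate 1 and without Raji-4RH DMSO replicate 1. The other pathway genes called ranged from 43 to 48, 38 to 46, 30 to 40 and 53 to 59. Where an arm kept 1 library, it was assumed to vary like the other groups. A fit of the difference with only the libraries compared is the fit over all 8.

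The labels do not say whether libraries with the same replicate number share a culture or batch. Their deviations from the group means correlated at -0.279 to 0.166 over genes, which cannot settle that. With a replicate block the lower STAT3 of untreated Raji-4RH lost its call (-0.134, limma adjusted p = 0.0671), and no other member's call changed. Replicates differed by more than counting noise (chi-square per degree of freedom 1.77 to 13.52, the highest in Raji-4RH with chidamide). The fit assumed the same spread in all groups for a gene, so equal SEs in the lines do not mean equal spread. JAK3 and SOCS3, with 0 to 46 reads a library, were limited by depth.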
